A study of Mus musculus with 6 samples.

Results

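The transcripts described here are those of 4 transglutaminases (Tgm1, Tgm2, Tgm3 and Tgm5), of the plakins envoplakin (Evpl) and periplakin (Ppl), and of cornifelin (Cnfn) and suprabasin (Sbsn), in cultured mouse epidermal keratinocytes. The 8 genes were taken by symbol from a table of 23420 genes, and all 8 were among the 12672 genes with enough reads to be tested. Messenger RNA was sequenced from 6 cultures, and every one of them carried loxP-flanked alleles of Gata6, a GATA-family transcription factor. The 3 libraries labelled iKO (induced knockout) were K14CreERT2-positive, meaning that a tamoxifen-activated Cre recombinase was driven by the keratin 14 promoter of basal keratinocytes, and the 3 labelled WT lacked that transgene. Both groups stood in low-calcium E medium, were at passage 8 to 10 and were given 1 µM 4-hydroxytamoxifen over 6 hours. The iKO libraries are called iKO 3, iKO 4 and iKO 33 after their columns, and the number 33 matches no iKO title. Whether the 3 libraries of a group trace to separate mice or to 1 culture is not labelled, and p-values here cover library-to-library spread alone, some of which may be technical.

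Transglutaminases are calcium-dependent enzymes that join glutamine and lysine side chains of proteins by isopeptide bonds. At the end of epidermal differentiation they knit proteins under the plasma membrane into the cornified envelope, the insoluble shell of the dead outer skin cells. Envoplakin and periplakin associate with each other and form an early scaffold at the membrane, onto which involucrin, small proline-rich proteins, loricrin and others are then cross-linked. Low calcium holds cultured keratinocytes in a largely basal, proliferative state, and raised calcium starts this programme.

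The 4 transglutaminases share a catalytic core, and their transcripts were similar there without being near-identical. Shown first are 87 coding bases around the codon of the active-site cysteine (in capitals) of each member, because reads of near-identical paralogs could be counted for the wrong gene. Each window is the single place where the reading frame of the longest coding transcript in GENCODE M21 (mm10) reads glycine, glutamine, cysteine and tryptophan.
Tgm1: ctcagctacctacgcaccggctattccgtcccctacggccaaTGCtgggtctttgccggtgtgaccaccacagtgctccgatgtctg
Tgm2: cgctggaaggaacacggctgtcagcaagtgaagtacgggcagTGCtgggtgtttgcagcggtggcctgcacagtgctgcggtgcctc
Tgm3: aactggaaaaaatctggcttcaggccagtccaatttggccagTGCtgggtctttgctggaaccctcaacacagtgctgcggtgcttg
Tgm5: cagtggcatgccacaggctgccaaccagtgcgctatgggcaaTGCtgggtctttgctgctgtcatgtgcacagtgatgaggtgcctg
Aligned on that codon, between 50 (Tgm1 and Tgm3) and 60 (Tgm2 and Tgm5) of the 87 bases were the same in a pair. Over whole transcripts the longest identical run between any pair of these 4 genes was 22 bases (Tgm1 and Tgm5), and with Tgm4, Tgm6 and Tgm7 included it was 24 bases. For Evpl and Ppl, which share plakin ancestry, it was 15 bases.

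The libraries held 21943467 to 83337263 reads assigned to genes. Values below are CPM, read counts scaled to library size, with the TMM factor that aligns libraries on the bulk of their genes, so 1 read was worth 0.0118 to 0.0461 CPM. The level of Gata6, the gene to be deleted, ran against the labels, with 0.519 to 5.37 CPM in the libraries labelled WT and 14.2 to 21.02 CPM in those labelled iKO. Reads from outside the deleted part also count towards the gene, and the deletion itself was not checked by this level. Groups are therefore named by their labels, and each direction is that of the libraries labelled iKO against those labelled WT. Xist was at 605 to 889 CPM in the libraries labelled WT and 0.0824 to 2.62 CPM in those labelled iKO, with the Y-linked gene Ddx3y the other way round, so sex and label cannot be told apart. The keratinocyte label held, with all 10 markers detected in every library: Krt5 and Krt14, the basal keratins, measured 14719 to 23621 and 12916 to 21993 CPM. Among these markers 5 had a positive and 5 a negative difference, 3 of them with an unadjusted p under 0.05. The epidermal stem cell factor gene Trp63 (p63) stood at a log2 fold change of -0.68 (SE 0.10, edgeR adjusted p = 0.0529) and E-cadherin, Cdh1, at 0.55 (SE 0.12, edgeR adjusted p = 0.130), both without overlap, and the basal keratin gene Krt15 at -1.28 (SE 0.49, edgeR adjusted p = 0.289) with overlap. The suprabasal keratins Krt1 and Krt10 were at 0.4001 to 3.56 and 4.88 to 23.6 CPM. Fibroblast markers (10 in the table, 3 with enough reads) summed to 301 to 539 CPM in the libraries labelled WT and 705 to 1200.4 CPM in those labelled iKO. Nearly all of this was Sparc (299 to 1195.8 CPM); Col1a1 never passed 0.289 CPM and Dcn and Lum had no read. Melanocyte marker sums overlapped between groups (5.69 to 11.9 CPM), with Dct and Kit at 0, and immune and endothelial sums were 12.4 to 23.1 CPM in the libraries labelled WT and 10.3 to 11.8 CPM in those labelled iKO, with Ptprc at no more than 0.0667 CPM. Their part in the results was not tested. In such bulk samples, fewer cells expressing a gene and less of its RNA per cell cannot be told apart.

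Tgm1 was the member that separated the groups. It encodes the membrane-anchored transglutaminase of the epidermis, whose loss in humans causes lamellar ichthyosis. WT 2 had 32.0 CPM of it, WT 3 had 26.7 and WT 4 had 24.5. Among the libraries labelled iKO, iKO 3 reached 147 CPM, iKO 4 66.4 and iKO 33 83.1. The lowest library labelled iKO thus stood well above the highest labelled WT, and the libraries labelled WT lay close together. The means were 27.7 ± 3.84 and 99.0 ± 42.8 CPM (SD, n = 3), a 3.57-fold difference. The log2 fold change was 1.84 (SE 0.30, 95% interval 1.12 to 2.55). Tgm1 was the 92nd gene of 12672 by p and missed the threshold of 0.05 in edgeR's quasi-likelihood test with Benjamini-Hochberg adjustment over all genes (adjusted p = 0.0690). None of the 8 members passed that threshold, which 0.339% of tested genes did. Tgm1 alone had an unadjusted edgeR p under 0.05 (0.000501), as 15% of tested genes had. It was also the sole member without overlap between groups, against 21.9% of tested genes, 10.5% with the libraries labelled iKO above and 11.3% with them below.

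In DESeq2, a count test with other variance estimates, Tgm1 was called (log2 fold change 1.83, adjusted p = 4.81e-07), along with 5.74% of the genes given an adjusted p (3.01% higher in the libraries labelled iKO) and no other member. The authors' deposited table, made from the same libraries, lists Tgm1 at a log2 fold change of 1.45 (SE 0.25, adjusted p = 7.2e-07) and calls 5.9% of genes, 3.05% higher in iKO. Its log2 fold changes were closer to 0 for every member, at similar p-values. Tgm2 stood at 0.45 there (unadjusted p = 0.113) and at 1.47 in DESeq2 here (unadjusted p = 0.103). Tgm3 stood at 0.66 there (unadjusted p = 0.0275, adjusted p = 0.220) and at 1.66 in DESeq2 here (unadjusted p = 0.0232, adjusted p = 0.206). Sizes are therefore not compared between these sources. Without iKO 3, the library highest in Tgm1, the log2 fold change was 1.43 in edgeR (adjusted p = 0.0617), and without WT 2 it was 1.95 (adjusted p = 0.249). Leaving out any single library gave DESeq2 values of 1.44 to 2.05, each with an adjusted p of at most 0.000138.

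**Figure D1:**
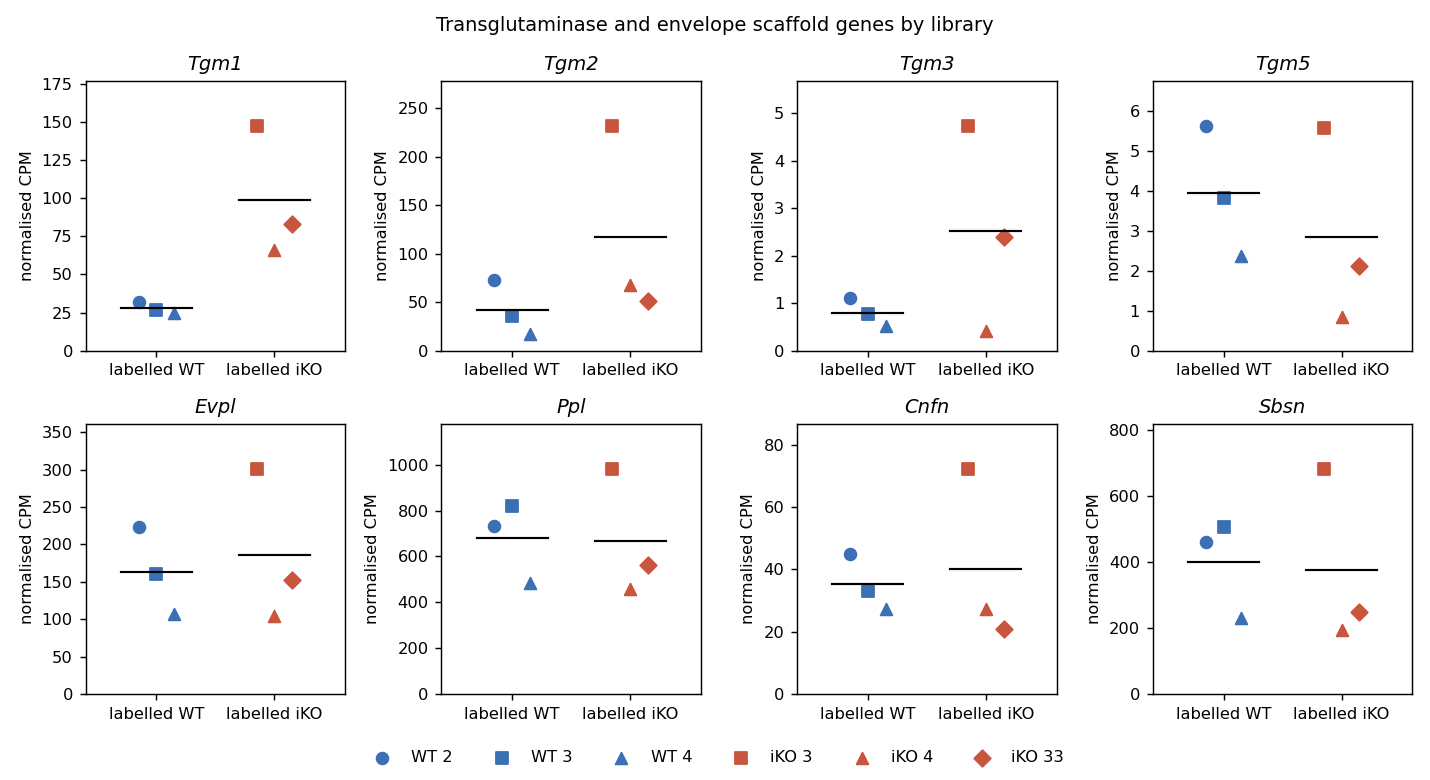
Normalised CPM (vertical axis, from 0) of each member in the 3 libraries labelled WT (blue) and the 3 labelled iKO (red), with black lines at group means. In the Tgm1 panel the red points (66.4 to 147 CPM) all lie above the blue ones (24.5 to 32.0 CPM), and in the other 7 panels the groups overlap.

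Tgm2, the widely expressed tissue transglutaminase that also binds GTP and acts outside the cell on matrix proteins, varied most of the 8 within the libraries labelled WT. WT 2, WT 3 and WT 4 had 73.2, 35.9 and 17.0 CPM, and iKO 3, iKO 4 and iKO 33 had 232, 68.3 and 50.9 CPM. WT 2 thus lay above both iKO 4 and iKO 33, and iKO 3 was far above the other 5 libraries. The log2 fold change was 1.48 (SE 0.71, 95% interval -0.19 to 3.15; edgeR adjusted p = 0.386), and without iKO 3 it was 0.51. On chromosome 2 (158116402 to 158146436, minus strand, mm10) the exons of Tgm2 share 370 bases with those of Rprd1b on the opposite strand. They share 633 bases with those of the processed transcript Gm20412, also on the opposite strand. The strand setting of the counting is not given in the sources used here, so reads of these shared bases cannot be assigned with certainty. Rprd1b itself stood at -0.30 (SE 0.12).

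Tgm3 and Tgm5 had the lowest levels of the 8 members. Tgm3, the transglutaminase of hair and upper epidermis, had 1.11, 0.772 and 0.512 CPM in WT 2, WT 3 and WT 4. Its values in iKO 3, iKO 4 and iKO 33 were 4.73, 0.422 and 2.40 CPM. The gene lies on chromosome 2 (130012349 to 130050399, plus strand). These values came from 18 to 61 reads in the libraries labelled WT and 19 to 204 in those labelled iKO. iKO 4 was the lowest of all 6 libraries and iKO 3 the highest, so the group labelled iKO enclosed the group labelled WT. The log2 fold change of Tgm3 was 1.67 (SE 0.79, 95% interval -0.21 to 3.54; edgeR adjusted p = 0.384), 0.86 without iKO 3 and 2.17 without iKO 4.

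Tgm5, which cross-links envelope proteins in the upper epidermis and is mutated in human acral peeling skin syndrome, had 5.62, 3.82 and 2.36 CPM in WT 2, WT 3 and WT 4. Its values in iKO 3, iKO 4 and iKO 33 were 5.56, 0.844 and 2.12 CPM. iKO 3 was as high as WT 2, and the other libraries labelled iKO were below every library labelled WT. Its log2 fold change was -0.48 (SE 0.66, 95% interval -2.05 to 1.10; edgeR adjusted p = 0.792), -1.39 without iKO 3 and -0.04 without iKO 4. Tgm5 lies on chromosome 2 too (121046111 to 121085841, minus strand). Tgm1 and Tgm5 had estimates of opposite sign, and that of Tgm5 was not distinguishable from 0.

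For the scaffold plakins no difference between groups was resolved. Evpl, on chromosome 11 (116220559 to 116238077, minus strand), measured 223, 161 and 107 CPM in WT 2, WT 3 and WT 4 and 300.5, 105 and 152 CPM in iKO 3, iKO 4 and iKO 33. Ppl, the member with the most CPM, on chromosome 16 (5086291 to 5132421, minus strand), measured 734, 821 and 482 CPM in the libraries labelled WT in the same order and 980.4, 456 and 562 CPM in those labelled iKO. For both genes the groups overlapped widely, with WT 4 and iKO 4 at the low end and iKO 3 highest. The log2 fold change was 0.18 for Evpl (SE 0.42, 95% interval -0.81 to 1.17) and -0.03 for Ppl (SE 0.32, 95% interval -0.78 to 0.73), with edgeR adjusted p-values of 0.882 and 0.978. A p-value of that size does not show that the groups were alike.

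Cnfn encodes a small envelope protein that binds loricrin and involucrin. It lies on chromosome 7 (25367620 to 25369724, minus strand). Its CPM was 44.9, 33.1 and 27.4 in WT 2, WT 3 and WT 4, and 72.1, 27.3 and 21.0 in iKO 3, iKO 4 and iKO 33. Sbsn, also on chromosome 7 (30751471 to 30756134, plus strand, with 279 exonic bases shared with Tmem147os), encodes a secreted protein of suprabasal cells. Its CPM was 462, 507 and 231 in the libraries labelled WT and 682, 194 and 248 in those labelled iKO. In both, iKO 3 was the highest of the 6 libraries and the other libraries labelled iKO lay near or below WT 4. The log2 fold changes were 0.19 for Cnfn (SE 0.46, 95% interval -0.90 to 1.28; edgeR adjusted p = 0.889) and -0.09 for Sbsn (SE 0.51, 95% interval -1.30 to 1.11; edgeR adjusted p = 0.952). Without iKO 3 Cnfn stood at -0.54 and Sbsn at -0.85. The direction of Evpl, Ppl, Cnfn and Sbsn depended on which library was left out.

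**Figure D2:**
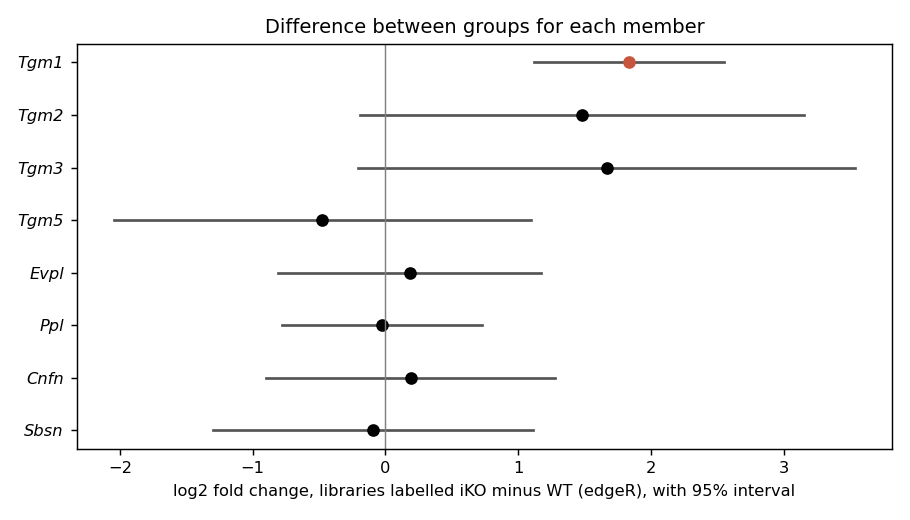
Log2 fold change of each member (horizontal axis, libraries labelled iKO minus WT, edgeR) with its 95% interval. The interval of Tgm1 (1.12 to 2.55) lies above 0 and those of the other 7 members include 0. The red point marks the member whose groups do not overlap.

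Of the 8 members, 5 had a positive and 3 a negative log2 fold change, with a median of 0.19. Over all 12672 tested genes 51.2% were positive, 48.8% negative and the median was 0.01.

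What the members shared was their order among the libraries of a group. WT 4 was the lowest library labelled WT for all 8 members and iKO 3 the highest labelled iKO for all 8. Both held together for 17.2% of all tested genes. iKO 4 was the lowest of its group for 6 members, the exceptions being Tgm2 and Cnfn, where iKO 33 was. The members also varied more within groups than the typical gene: the SD of log2 CPM was 0.20 (Tgm1) to 1.05 (Tgm2) in the libraries labelled WT and 0.57 (Ppl) to 1.73 (Tgm3) in those labelled iKO, where the median over tested genes was 0.22 and 0.21. Only Tgm1 in the libraries labelled WT was below that median. Suprabasal markers (8 in the table, all tested) summed to 865, 774 and 464 CPM in WT 2, WT 3 and WT 4 and to 1179 CPM in iKO 3, 386 in iKO 4 and 568 in iKO 33. Most of the sum was Krtdap (135 to 661 CPM) and the desmocollin gene Dsc2 (53.0 to 346 CPM), and in it WT 4 was again the lowest of its group and iKO 3 the highest. Not every marker had that order: within the libraries labelled iKO, Ivl was highest in iKO 33 and Krt1 and Krt10 in iKO 4. By gene, 2 of these markers had a positive and 6 a negative difference (median log2 fold change -0.55), and Krt1 and Krt10 were lower in every library labelled iKO than in any labelled WT. The part of differentiation state in the members' values was not tested.

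**Figure D3:**
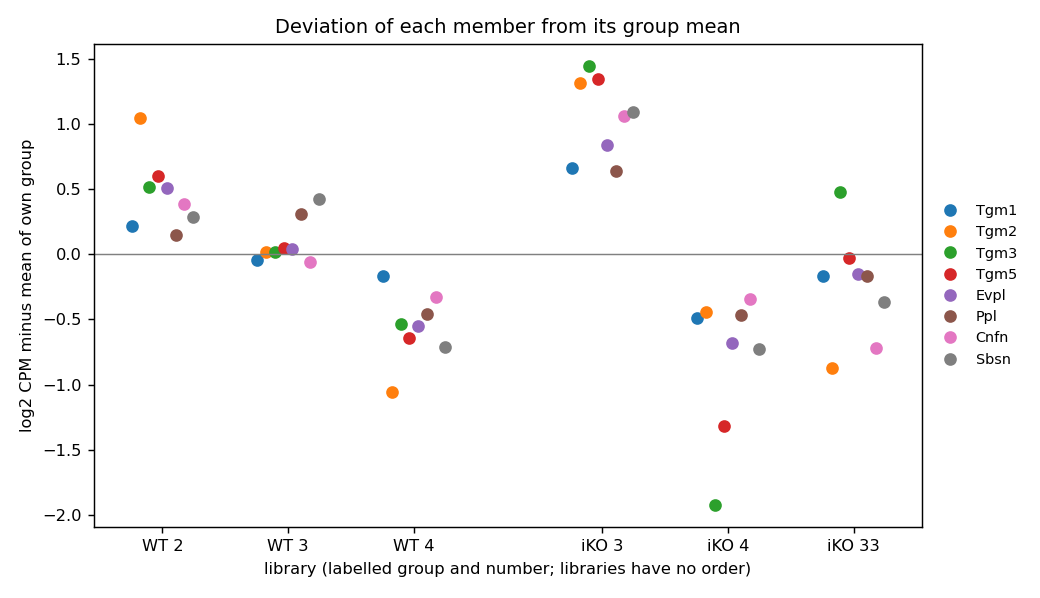
Log2 CPM of each member minus the mean of its own group (vertical axis) for each library, with 1 colour per member. All 8 points of iKO 3 and all 8 of WT 2 lie above 0, and all 8 of WT 4 and of iKO 4 lie below it.

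Because the members moved together between libraries, each was also set against Ppl within its library. The ratio of Evpl to Ppl was planned, and the other ratios were a choice made after the values were seen. Tgm1 had 4.36, 3.26 and 5.08% of the CPM of Ppl in WT 2, WT 3 and WT 4, and 15.04, 14.6 and 14.8% in iKO 3, iKO 4 and iKO 33. The ratio was thus nearly the same in the 3 libraries labelled iKO, although the CPM of Tgm1 itself was 147 in iKO 3 and 66.4 in iKO 4. The mean log2 ratio was -4.58 ± 0.33 in the libraries labelled WT and -2.76 ± 0.02 in those labelled iKO (SD, n = 3), a difference of 1.83. The exact two-sided permutation p was 0.1, the smallest that 3 against 3 libraries allow, and 0.525 after adjustment over the 7 ratios computed.

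Tgm2 reached 9.97, 4.37 and 3.53% of Ppl in the libraries labelled WT and 23.7, 14.99 and 9.06% in those labelled iKO, an overlap at WT 2 and iKO 33 (exact permutation p = 0.2). The ratio of Evpl to Ppl, the scaffold partners, was 30.4, 19.5 and 22.2% in the libraries labelled WT and 30.6, 23.0 and 27.0% in those labelled iKO. Its mean log2 value was -2.08 ± 0.33 and -1.91 ± 0.21 (SD, n = 3), a difference of 0.18 with an exact two-sided permutation p of 0.4. The remaining ratios, of Tgm3, Tgm5, Cnfn and Sbsn, overlapped between groups, with exact permutation p-values of 0.3 to 0.9.

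**Figure D4:**
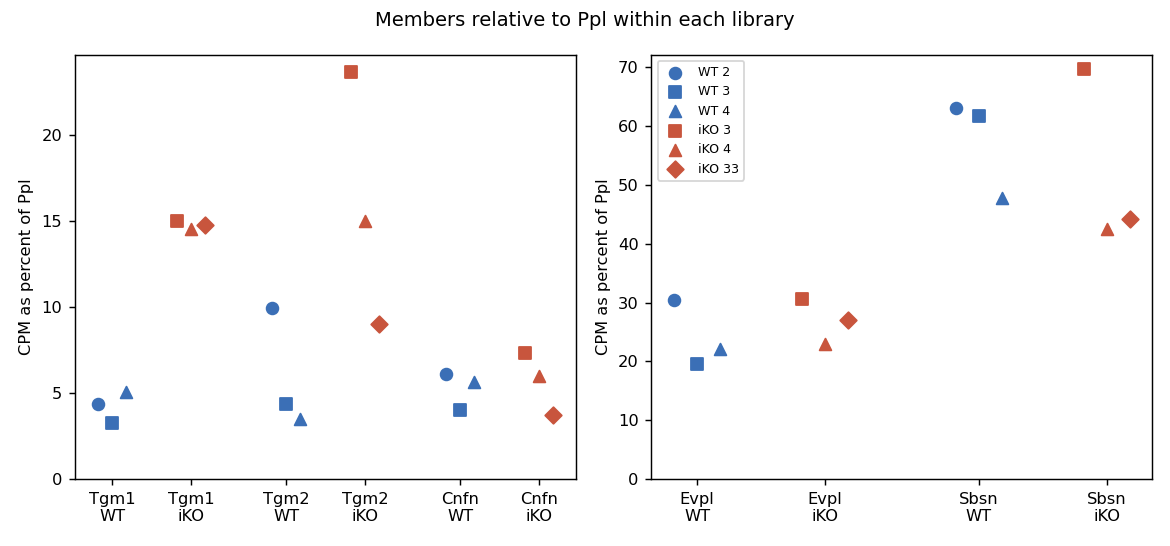
CPM of Tgm1, Tgm2 and Cnfn (left) and of Evpl and Sbsn (right) as a percentage of the CPM of Ppl in the same library (vertical axes, from 0). The red points of Tgm1, libraries labelled iKO, lie between 14.6 and 15.04% and the blue ones, labelled WT, between 3.26 and 5.08%. The groups overlap for the other 4 genes.

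Levels of different genes were compared per length, as CPM per kilobase of annotated exon (GENCODE M21). In the libraries labelled WT the order was Sbsn (110.3 ± 40.9), Ppl (98.5 ± 25.5), Cnfn (48.9 ± 12.5), Evpl (25.6 ± 9.07), Tgm2 (9.12 ± 6.20), Tgm1 (8.78 ± 1.22), Tgm5 (1.25 ± 0.518) and Tgm3 (0.193 ± 0.0721; SD, n = 3). The ranges of Sbsn and Ppl overlapped, as did those of Tgm2 and Tgm1, and the other neighbours in that order did not overlap. In the libraries labelled iKO, Sbsn (103 ± 73.8), Ppl (96.7 ± 40.2) and Cnfn (55.8 ± 38.8) were again first, followed by Tgm1 (31.3 ± 13.5), Evpl (29.1 ± 16.002), Tgm2 (25.4 ± 21.7), Tgm5 (0.901 ± 0.774) and Tgm3 (0.609 ± 0.522). There each neighbouring pair overlapped except Tgm2 and Tgm5.

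Per length, Tgm1 and Tgm2 made up most transglutaminase transcripts in every library. The summed level of Tgm1 to Tgm7 was 31.4, 20.5 and 14.9 CPM per kilobase in WT 2, WT 3 and WT 4 and 102.9, 38.8 and 40.8 in iKO 3, iKO 4 and iKO 33, without overlap. That sum includes Tgm1, the only gene in it whose own groups did not overlap. Tgm2, the next largest part, had 15.9, 7.79 and 3.69 CPM per kilobase in the libraries labelled WT. In those labelled iKO it had 50.3, 14.8 and 11.1. Tgm1 held 41.9 ± 9.96% of that sum in the libraries labelled WT and 54.6 ± 9.52% in those labelled iKO, with overlap, and Tgm2 held 37.8 ± 12.9% and 38.1 ± 10.9% (SD, n = 3). Tgm5 held 5.03 to 5.92% in the libraries labelled WT and 0.690 to 1.71% in those labelled iKO. The share of Tgm4 was also lower without overlap, at 10.4 to 17.05% and 2.69 to 6.62%. A share depends on the other genes of the sum, and the CPM of Tgm5 and that of Tgm4 each overlapped between groups. Tgm4, known as the prostate transglutaminase, was detected in all libraries at 10.001 to 14.8 CPM with a log2 fold change of -0.18 (SE 0.17), and was the 1 tested gene among the 5 other family members in the table. Tgm6 and Tgm7 stayed at or below 0.671 CPM, F13a1 had 2 reads in WT 4 alone, and F13b had none.

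**Figure D5:**
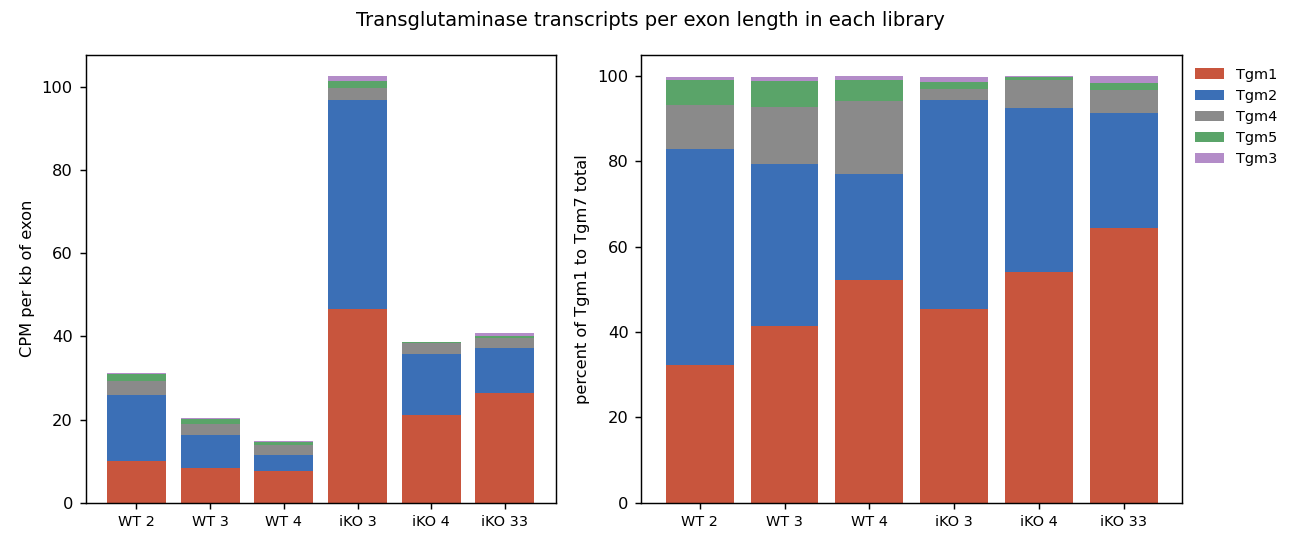
Transcripts of Tgm1 to Tgm5 per kilobase of exon (left, CPM per kb) and as a percentage of the sum over Tgm1 to Tgm7 (right), stacked for each library; Tgm6 and Tgm7 are too low to draw. The sum is 14.9 to 31.4 CPM per kb in the libraries labelled WT and 38.8 to 102.9 in those labelled iKO. Of its parts only Tgm1 has no overlap between groups in CPM per kb.

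Tgm1 lies on chromosome 14 (55700009 to 55713926, minus strand, mm10). Its 182 bases of exon shared with the predicted antisense gene Gm49067 cannot be assigned by strand. Of 9 tested genes within 50 kb, 5 had a positive log2 fold change and the median was 0.17. The next gene, Rabggta (a Rab geranylgeranyl transferase subunit), stood at 0.29 (SE 0.11) and Dhrs1, a dehydrogenase gene 25094 bases away, at 0.72 (SE 0.18). Neither passed in edgeR (adjusted p = 0.283 and 0.160), and both were chosen after their values were seen. The 250 bases upstream of the first RefSeq start of Tgm1 (chr14:55713493-55713742, minus strand, GRCm38.p6) are shown because Tgm1 alone separated the groups and the study concerns a GATA factor; matches to the GC box GGGCGG on either strand are in capitals. All but 2 of these bases lie outside annotated exons of GENCODE M21, whose gene model starts further upstream.
Tgm1 upstream: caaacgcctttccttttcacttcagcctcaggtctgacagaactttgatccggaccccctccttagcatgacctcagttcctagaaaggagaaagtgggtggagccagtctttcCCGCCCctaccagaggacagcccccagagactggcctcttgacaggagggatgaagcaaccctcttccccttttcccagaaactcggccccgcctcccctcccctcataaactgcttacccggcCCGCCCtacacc
This window held 2 GC boxes, and 32.7% of all 32851 upstream windows of the same length held at least 1. It held no GATA motif (AGATAA or TGATAA, either strand; 16.6% of all windows), no AP-1 motif (TGANTCA; 6.75%) and no Grainyhead motif (AACNGGTT; 1.79%). RefSeq upstream windows were at hand for 5 of the 8 members, 6 windows in all. None of the 6 held the GATA or the Grainyhead letters, that of Sbsn held 1 AP-1 match and that of Cnfn 1 GC box. No match says only that these letters are not in these windows.

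The genes whose profile over the 6 libraries was most like that of Tgm1, by root mean square difference of centred log2 CPM among 10023 genes, were Sel1l3 (0.20), Myzap (0.25) and Vstm5 (0.27), where the median gene stood at 0.98. For Tgm2 they were Mall (0.33), Olfm2 (0.35) and Ly6d (0.35), and for Tgm3 they were Sort1 (0.48), Scel (0.51), the gene of the envelope protein sciellin, and Slc5a1 (0.53). Tgm5 was closest to Krtdap (0.19), the keratinocyte differentiation-associated protein gene, Krt6b (0.26) and Ttc22 (0.30). Evpl was closest to Clic3 (0.10), Mapre2 (0.12) and Dmkn (0.13), and Ppl to Fam57a (0.10), Duoxa1 (0.10) and Pxmp4 (0.10). For Cnfn they were Wnt4 (0.17), Slc16a6 (0.17) and Rps6kb2 (0.18), and for Sbsn Gltp (0.08), a glycolipid transfer protein gene, Tmem184a (0.08) and Aloxe3 (0.13), an epidermal lipoxygenase gene. Among the members themselves the distance was smallest for Evpl and Ppl (0.24) and largest for Tgm1 and Tgm5 (1.36). These distances are smaller for genes that vary little. The median gene stood at 0.46 from Ppl, 0.59 from Evpl and 1.22 from Tgm3, so distances of different members are not on the same scale.

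None of the genes that work with the members passed in edgeR over all genes. Counts of an unadjusted p under 0.05 are given instead, which 7.32% of tested genes had with higher and 7.7% with lower values. Among 40 tested substrates encoded in the epidermal differentiation complex, 13 were higher and 27 lower (median -0.39), 4 and 3 of them with such a p. The 4 higher ones were the small proline-rich genes Sprr2k (1.44, SE 0.33), Sprr2e (1.07, SE 0.31) and Sprr2d (1.31, SE 0.38), whose family members are similar enough to share reads, and involucrin, Ivl (1.04, SE 0.37). Trichohyalin (Tchh, -1.09, SE 0.39), cornulin (Crnn, -2.61, SE 0.98) and hornerin (Hrnr, -3.84, SE 1.57) were lower, the latter pair at a few CPM or less and with overlapping groups. In each of these WT 3 was the highest library labelled WT, with Tchh at 27.6 CPM there, 10.2 in WT 2 and 10.9 in WT 4. Some other lower genes leaned on WT 3 as well. Lce1a1 had 22.3 CPM in WT 3, 2.90 in WT 2, 5.15 in WT 4 and 4.01 to 6.46 in the libraries labelled iKO. How far the count of lower genes rests on WT 3 was not tested. Loricrin (Lor), a late substrate, stood at only 1.84 to 8.89 CPM, with overlapping groups. Of 12 tested other substrates, 4 were higher and 8 lower (median -0.19), and the suprabasal keratin gene Krt10 stood at -1.11 (SE 0.36). Of the 5 other plakin genes 1 was higher and 4 lower, with Dst, which encodes a hemidesmosomal plakin, at -0.58 (SE 0.19).

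The corneocyte lipid envelope, a ceramide layer bound to the outer face of the protein envelope, had 13 higher and 5 lower among 18 tested genes (median 0.14). The 4 with an unadjusted p under 0.05 were the epoxide hydrolase gene Ephx3 (3.19, SE 0.87) from a low level of 0.237 ± 0.0141 CPM, Nipal4 (0.83, SE 0.23), the ceramide synthase gene Cers3 (0.77, SE 0.22) and the fatty acid elongase gene Elovl4 (0.73, SE 0.22). In each the libraries labelled iKO all lay above those labelled WT, as for 10.5% of tested genes. These 4 were picked by p, so that lack of overlap adds no separate support. Ephx3 had 5.12 CPM in iKO 3 but 0.667 in iKO 4 and 0.918 in iKO 33, so the size of its estimate rests largely on iKO 3. The lipoxygenase genes Alox12b (0.13, SE 0.73) and Aloxe3 (-0.33, SE 0.51) and the lipid transporter gene Abca12 (-0.14, SE 0.28) were not distinguishable from 0. Of 6 cystatin and cathepsin genes 5 were higher. Among them legumain (Lgmn) stood at 0.48 (SE 0.13) and cathepsin L (Ctsl) at 0.59 (SE 0.23), while cystatin M/E (Cst6), which restrains both, stood at 0.34 (SE 0.70).

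Of 21 regulators of late differentiation, 16 were higher and 5 lower (median 0.30), 4 and 1 with an unadjusted p under 0.05. Grhl3, which in mice is needed for Tgm1 expression and the skin barrier, measured 40.1, 38.7 and 29.4 CPM in WT 2, WT 3 and WT 4 and 103, 58.1 and 60.9 CPM in iKO 3, iKO 4 and iKO 33, without overlap. Its log2 fold change was 1.03 (SE 0.25, edgeR adjusted p = 0.152). Zfp750, a p63 target that promotes differentiation in human keratinocytes, stood at 1.02 (SE 0.32), while Trp63 itself was lower in every library labelled iKO (191 to 205 CPM) than in any labelled WT (307 to 331 CPM). The receptor gene Notch3 stood at 1.47 (SE 0.41), Fosl2 of AP-1 at 0.30 (SE 0.10) and Notch1 at -0.29 (SE 0.10).

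Retinoic acid regulates transglutaminase genes in opposite ways, lowering Tgm1 in keratinocytes and raising Tgm2 in many cells. Of 9 tested retinoid genes 5 were higher and 4 lower (median 0.07). Crabp2, a retinoic acid carrier, measured 15.2, 22.5 and 11.8 CPM in WT 2, WT 3 and WT 4 and 74.3, 46.4 and 63.4 CPM in iKO 3, iKO 4 and iKO 33 (log2 fold change 1.89, SE 0.28, edgeR adjusted p = 0.0576). It was the 1 gene of its list with an unadjusted p under 0.05. Among 9 tested surface and matrix partners of tissue transglutaminase 6 were higher and 3 lower (median 0.18), with the endocytic receptor gene Lrp1 at 0.90 (SE 0.25) and fibronectin, Fn1, at 0.75 (SE 0.27), both without overlap. Of 7 tested hair and inner root sheath genes, 5 were higher and 2 lower (median 0.93). The peptidylarginine deiminase genes Padi1 (2.06, SE 0.49) and Padi3 (1.51, SE 0.52), which citrullinate envelope and hair proteins, and S100a3 (1.45, SE 0.47) were higher with an unadjusted p under 0.05. Tchh, whose protein is a substrate of the deiminases and of Tgm3, was lower. The inner root sheath keratins Krt25, Krt27, Krt28, Krt71, Krt72 and Krt73 had too few reads to be tested. Dmkn and Krtdap, which neighbour Sbsn on chromosome 7 and like it encode secreted epidermal proteins, stood at 0.29 (SE 0.44) and -0.59 (SE 0.58), with overlapping groups.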

How the data were processed

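The authors deposited raw read counts by gene symbol from TruSeq RNA v2 libraries, per the labels' protocols. TopHat2, HTSeq, DESeq, DESeq2 and mm10 are listed, per the submitters' processing notes. The sources used here do not give annotation or strand. The 5 HTSeq summary rows were left out. They held 34.8% to 35.5% of counts in the libraries labelled WT and 27.4% to 32.0% in those labelled iKO, without overlap. Reads not uniquely aligned, the largest part, were 29.5% to 30.5% and 21.7% to 26.5% of counts. The part of this difference in the gene values was not tested. The authors' deposited result table holds p-values, a Wald score, log2 fold changes with SE and a mean signal (normalised counts), per the file headers.

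Counts were tested in R 4.3.3 with edgeR 4.0.16: filterByExpr (minimum count 10), TMM factors, glmQLFit and glmQLFTest with robust estimation, group as the only term, two-sided, Benjamini-Hochberg at 0.05 over all genes. The SE is the size of the log2 fold change over the root of F. Log2 CPM used a prior count of 2. The test was checked on simulated data. Every within-group pair of libraries differed beyond counting noise (chi-square per degree of freedom at least 38.9). Alternatives used DESeq2 1.42.0, limma 3.58.1 (voom), other scaling and filters, a replicate block and leaving out each library. Named genes are all members, up to 4 genes per list by smallest p under 0.05, and the 3 genes nearest each member. Lor, Alox12b, Aloxe3, Abca12, Cst6, Crnn, Hrnr, Lce1a1, Notch1, Rprd1b, Trp63, Cdh1, Krt15, Dsc2 and the chromosomal neighbours were added after their values were seen. The members, lists and rules were chosen with earlier results of these data known. Positions come from GENCODE M21, upstream sequences from RefSeq (GRCm38.p6).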

Additional observations from a re-analysis of the deposited data

How the results depend on the processing

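Over all genes, 43 were called in edgeR, 76 with no count filter, 129 with a replicate block, 760 in DESeq2 and between 7 (without WT 2) and 31 (without WT 3) when a library was left out. Members called numbered 0 in edgeR, and 1 each in DESeq2 (Tgm1) and with the replicate block (Tgm2, log2 fold change 2.36, adjusted p = 0.0198), where Tgm1 stood at 1.96 (adjusted p = 0.0558). The groups share only the numbers 3 and 4; deviations from group means correlated at 0.30 and 0.66 across genes for these pairs, but also at 0.33 for WT 2 and iKO 3, so the numbers were not taken to pair the libraries. Tgm1, Tgm2, Tgm3 and Tgm5 kept their direction in all 15 alternatives; Tgm1 ranged from 1.43 to 2.06, with adjusted p from 4.81e-07 to 0.249. Directions turned for Cnfn in limma-voom (-0.035) and for Ppl (0.087) and Sbsn (0.089) with the replicate block. With a library left out Evpl ranged from -0.35 to 0.47, Ppl from -0.41 to 0.19, Cnfn from -0.54 to 0.50 and Sbsn from -0.85 to 0.22; the cause was not tested. The Evpl to Ppl difference stayed between 0.04 and 0.36, and was 0.35 within the numbers 3 and 4 (replicate block). Tgm3 rests on 18 to 204 reads per library, the fewest of the members.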
